A study of Mus musculus with 16 samples.

Results

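Glycolysis splits glucose into pyruvate and gluconeogenesis rebuilds glucose from pyruvate, and the liver can run both in full. The routes share reversible steps and part where one-way enzymes oppose each other: hexokinases face glucose-6-phosphatase, phosphofructokinase faces fructose-1,6-bisphosphatase, and pyruvate kinase faces the pair pyruvate carboxylase and phosphoenolpyruvate carboxykinase. The 8 genes described here were chosen by name to cover these steps, out of 48158 genes in the deposited table: Gpi1, Pfkl, Pklr, Pkm, Pcx, Pck1, Fbp1 and G6pc. All 8 passed the filter on low values. Adult hepatocytes make pyruvate kinase from Pklr, whereas Pkm is the gene of most other tissues, of leukocytes and of proliferating cells, so the balance of Pklr and Pkm was followed as well.

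The RNA came from hepatocytes of FVB mice, isolated in the presence of cycloheximide, a drug that holds ribosomes in place on mRNA. Mice were fed chow or, for 4 weeks, a diet with DDC, a porphyrinogenic compound that injures hepatocytes and bile ducts. For each diet, polyA-selected RNA was sequenced from the cytoplasm and from 3 pools of a sucrose gradient, namely monosomes with 1 ribosome, light polysomes with 2 to 4 and heavy polysomes with over 5. Each of the 8 groups held 2 libraries, 16 in all. Per the labels the chow fractions came from preparations named CH1_CH2 and CH3_CH4 (replicates 1 and 2) and the DDC fractions from preparations B and C, whereas the cytoplasmic libraries were named CH1 and CH3 for chow and C2 and D2 for DDC. The labels give neither the age of the mice nor how many animals stand behind a preparation, so that p-values measure the spread between these libraries, which may be partly technical. The spread of a gene was estimated once over all 8 groups, so its standard error is the same in every pool. Fractions of a diet share preparations by name but were fitted as unpaired, so the pools are not independent of each other. Values are FPKM, fragments per kilobase of transcript scaled by the depth of the library, summed over the transcripts of a gene, and a gene was called where the adjusted p was under 0.05 (limma on log2(FPKM + 1), Benjamini-Hochberg over 11790 genes). Fold changes below are ratios of mean FPKM, and log2 changes are on the log2(FPKM + 1) scale with their standard error, which understates the change of low genes.

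Several features of the libraries touch these results. In the 4 chow libraries of preparation 1, Xist was listed at 0.0394 to 2.44 FPKM and Eif2s3y, a gene of the Y chromosome, at 0; in the other 12 libraries Xist was at 0 and Eif2s3y at 4.2 to 34.5 FPKM. Some abundant liver genes were listed at 0 in whole groups: Alb in all 16 libraries, Apoa1 in 8 and Ttr in 2. A value of 0 is therefore given here as listed, not as absence. Other hepatocyte markers were present, with Apob at 103 to 813 FPKM and Cps1 at 43.6 to 229 FPKM. Of 10 hepatocyte markers, 9, 8, 7 and 8 were tested in cytoplasm, monosomes, light and heavy polysomes, and 2, 3, 3 and 2 of them were called lower in DDC, where 9.68%, 15.9%, 13.5% and 10.9% of all genes tested were. One was called higher, the fibrinogen chain Fgb, on monosomes alone (220 FPKM in chow and 1004 in DDC). Endothelial markers were called higher in 0, 1, 1 and 2 of 6 tested and red blood cell markers in 0 of 5 in each pool, where 12.7%, 21%, 16.6% and 13.9% of all genes were. Most markers of 3 other liver cell types were called higher in DDC. The summed FPKM of 13 Kupffer cell and macrophage markers was 104 to 135 in chow cytoplasm and 729 to 1091 in DDC cytoplasm, and 322 to 531 against 5443 to 6623 on heavy polysomes. Of these 13 markers, 11 were called higher in cytoplasm, 13 on monosomes, 12 on light polysomes and 13 on heavy polysomes. The summed level of 10 stellate cell and fibroblast markers was 36.0 to 50.1 FPKM in chow cytoplasm against 169 to 190 in DDC cytoplasm, and that of 9 cholangiocyte markers 48.0 to 55.9 against 335 to 441. In the same order of pools, 9, 10, 9 and 10 of the stellate cell and fibroblast markers and 5, 4, 5 and 5 of the cholangiocyte markers were called higher. In these bulk samples, a change in the number of cells of a type and a change in RNA per cell cannot be told apart.

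The sequences below show what sets the 2 Pkm messages apart, since only Pkm-201 was called between diets. Pkm-201 and Pkm-202 differ at their ends and by 1 of a pair of mutually exclusive coding exons, the choice that gives the M2 or the M1 form of the enzyme. Pkm-202 uses the upstream exon (chr9:59675029-59675195, GRCm38, plus strand), and Pkm-201 the downstream one (chr9:59675568-59675734), each exon 9 of its own transcript in the GENCODE M21 annotation. Both exons are 167 bases long. They differ at 64 bases, shown as capitals, and are 61.7% identical.
Pkm-202 exon: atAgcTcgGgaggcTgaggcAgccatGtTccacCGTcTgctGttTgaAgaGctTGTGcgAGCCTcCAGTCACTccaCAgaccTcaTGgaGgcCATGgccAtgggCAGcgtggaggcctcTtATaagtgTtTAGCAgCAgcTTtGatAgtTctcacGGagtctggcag
Pkm-201 exon: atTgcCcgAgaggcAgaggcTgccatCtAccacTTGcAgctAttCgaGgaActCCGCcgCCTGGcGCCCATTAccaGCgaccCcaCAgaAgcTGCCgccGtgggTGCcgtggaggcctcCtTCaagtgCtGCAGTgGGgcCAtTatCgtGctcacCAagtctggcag

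Promoters of 2 members are shown because genes of regulators known to act on them were measured in the same libraries. The sequences are from RefSeq on GRCm38.p6, end just before the first annotated exon base, and were searched on both strands within 250 bases before each start for all 8 members (11 promoter entries). The Pklr sequence (chr3:89136373-89136571, plus strand, upstream of the liver start) has in capitals a match to CACG and CGTG with 9 bases between them, a form of the element that the glucose-responsive factor ChREBP (gene Mlxipl) binds, at bases 89136453 to 89136469. The motif was found in 72 of 32851 promoters (0.219%). The Pck1 sequence (chr2:173152823-173153047, plus strand) has in capitals a match to TTACGTNA, a cyclic AMP response element-like motif found in 259 promoters (0.788%). G6pc also held a match to this motif. A match describes letters in a window and shows no binding.
Pklr promoter: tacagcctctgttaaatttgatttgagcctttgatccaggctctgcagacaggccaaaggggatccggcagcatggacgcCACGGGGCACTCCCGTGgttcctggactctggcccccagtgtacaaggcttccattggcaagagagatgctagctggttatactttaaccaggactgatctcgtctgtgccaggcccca
Pck1 promoter: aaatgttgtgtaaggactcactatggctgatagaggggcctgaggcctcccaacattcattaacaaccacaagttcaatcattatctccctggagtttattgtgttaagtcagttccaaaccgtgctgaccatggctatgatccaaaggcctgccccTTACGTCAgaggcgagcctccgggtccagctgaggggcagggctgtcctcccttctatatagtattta

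FPKM are per length, so levels were ordered within a group, with the FPKM of a gene's transcripts summed. In chow cytoplasm the means ran from Pck1 (593 FPKM) and Fbp1 (418) through Gpi1 (82.3), G6pc (80.1), Pcx (57.4), Pklr (30.6) and Pfkl (8.66) to Pkm (1.92). Neighbours in this order overlapped between Pck1 and Fbp1 and between Gpi1 and G6pc. In DDC cytoplasm the order was Gpi1 (481 FPKM), Fbp1 (171), Pck1 (112), Pklr (48.9), Pcx (40.4), G6pc (17.9), Pkm (16.4) and Pfkl (11.0), and the libraries of Pklr and Pcx, of G6pc and Pkm, and of Pkm and Pfkl overlapped. On heavy polysomes Fbp1 stood first in chow (1409 FPKM) and Gpi1 first in DDC (1129 FPKM). Pkm stood last in all 4 chow groups and at rank 5 in the DDC monosome, light and heavy groups. The place of Gpi1 depended on the summing of its short transcripts, described below. With transcripts weighted by length, Gpi1 was at 33.2 and 35.9 FPKM in chow cytoplasm, below G6pc (81.9 and 78.3) and Pcx (62.1 and 50.9). In DDC it then overlapped with Fbp1, at 163.6 and 117.2 FPKM against 177.0 and 163.0 in cytoplasm and at 315 and 369.5 against 253 and 483 on heavy polysomes, and was not first in either by its mean.

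**Figure D1:**
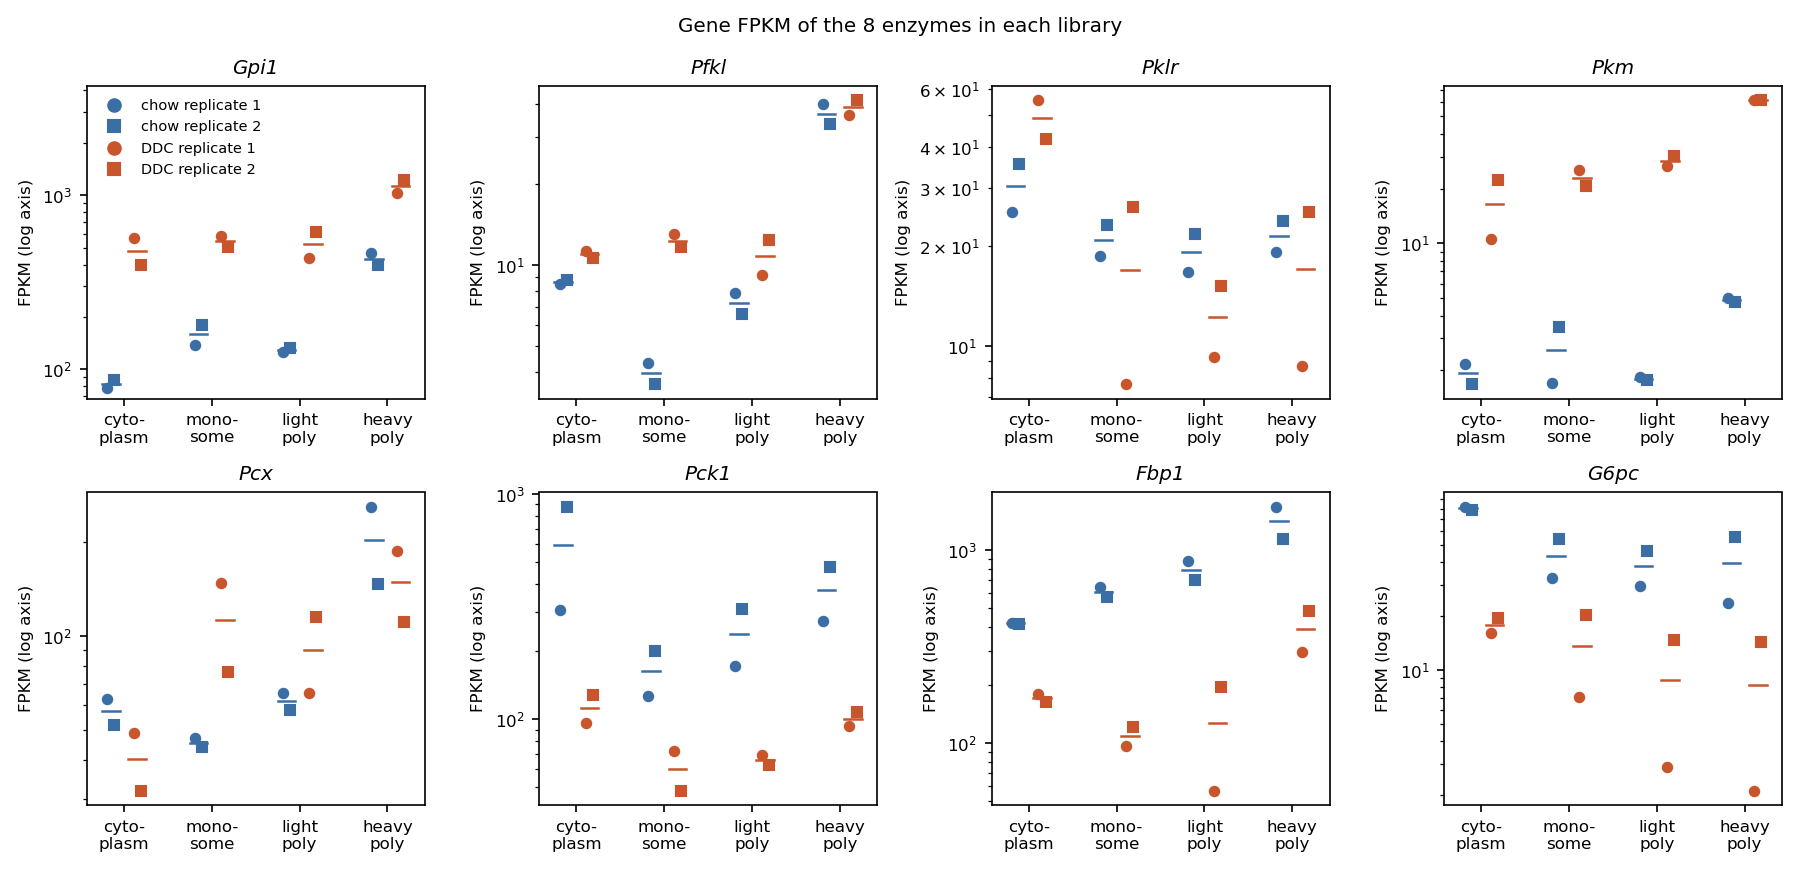
FPKM of each of the 8 genes (y, log axis) in cytoplasm, monosomes, light and heavy polysomes (x); circles and squares are replicates 1 and 2, horizontal bars the mean of the pair, blue chow and orange DDC. Pkm and Gpi1 lie higher in DDC than in chow in each of the 4 pools, and Pck1, Fbp1 and G6pc lie lower, without overlap.

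In cytoplasmic RNA, 2 of the 8 genes were called higher in DDC (Gpi1 and Pkm) and 1 lower (Pck1), where 22.4% of all genes tested were called, 12.7% higher and 9.68% lower. On monosomes 4 were called higher (Gpi1, Pfkl, Pkm, Pcx) and 2 lower (Pck1, Fbp1), against 37% of all genes, 21% higher and 15.9% lower. On light polysomes 2 were called higher (Gpi1, Pkm) and 3 lower (Pck1, G6pc, Fbp1), against 30.1% of all genes, 16.6% higher and 13.5% lower. The heavy polysomes gave the same 2 and the same 3 genes, against 24.8% of all genes, 13.9% higher and 10.9% lower. The median log2 change of the 8 genes was -0.11 in cytoplasm, 0.35 on monosomes, -0.08 on light and -0.46 on heavy polysomes, beside 0.01, 0.04, 0.01 and 0.02 over all genes tested. The members moved in opposite directions, so these medians describe none of them.

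**Figure D2:**
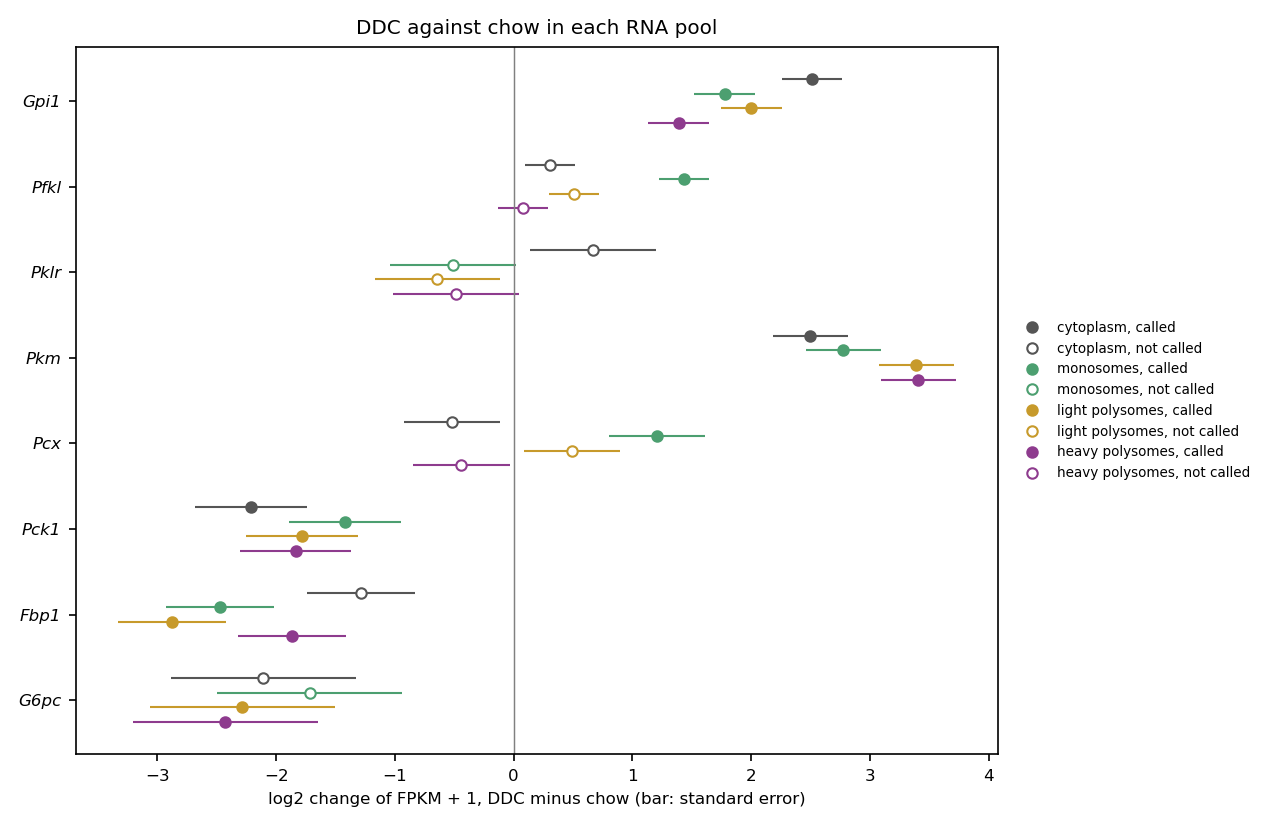
Log2 change of FPKM + 1 from chow to DDC (x) for each gene (y) in the 4 RNA pools, with standard errors as bars; filled points were called at an adjusted p under 0.05. Pkm and Gpi1 are called to the right of 0 in each pool, Pck1 to the left, and Pklr in none.

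Gpi1 encodes glucose-6-phosphate isomerase, the reversible step between glucose-6-phosphate and fructose-6-phosphate that both routes use. In cytoplasm it stood at 78.0 and 86.5 FPKM in chow and at 565 and 397 FPKM in DDC. The values on monosomes were 138 and 181 FPKM against 585 and 504, and on light polysomes 125 and 132 FPKM against 435 and 618. On heavy polysomes they were 463 and 397 FPKM against 1027 and 1231. Both DDC libraries lay above both chow libraries in every pool. The means were 5.85-fold, 3.42-fold, 4.09-fold and 2.63-fold higher in DDC, in the order cytoplasm, monosomes, light and heavy polysomes. The log2 changes were 2.51 ± 0.25, 1.78 ± 0.25, 2.00 ± 0.25 and 1.39 ± 0.25 (SE), with adjusted p of 6.26e-05, 0.000331, 0.000184 and 0.00209 (limma, Benjamini-Hochberg).

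Most of this level lay in short transcripts of Gpi1. The full-length message (2884 bases) held 7.19% to 24.5% of the gene's FPKM, and the rest was mainly a form of 581 bases, annotated as protein-coding, and one of 933 bases, annotated as a target of nonsense-mediated decay. The form of 581 bases was at 13.0 and 15.6 FPKM in chow cytoplasm and at 254 and 206 in DDC cytoplasm. Both chow heavy polysome libraries listed it at 0, and the DDC ones at 271 and 409 FPKM. The full-length message was at 19.1 and 19.9 FPKM in chow cytoplasm against 43.3 and 39.1 in DDC, a log2 change of 1.04 ± 0.24 (SE; limma, adjusted p = 0.0214 over 21481 transcripts, of which 10.2% were called). On light polysomes it changed by 0.94 ± 0.24 (adjusted p = 0.0231; 15.8% of transcripts called). Its monosome and heavy polysome values, 30.9 and 36.8 against 65.3 and 49.1 FPKM and 56.4 and 46.7 against 73.8 and 89.7 FPKM, did not overlap between diets and were not called (adjusted p = 0.0503 and 0.102; 23% and 14.9% of transcripts called). With transcripts weighted by their length, Gpi1 still changed by 1.97, 1.41, 1.63 and 1.12 in the 4 pools and was called in each. With protein-coding transcripts only, its log2 change was 2.96 in cytoplasm, 2.46 on monosomes, 3.41 on light and 2.99 on heavy polysomes.

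Pfkl encodes the liver subunit of phosphofructokinase, which commits fructose-6-phosphate to glycolysis. It was at 8.53 and 8.79 FPKM in chow cytoplasm and at 11.3 and 10.7 in DDC cytoplasm. On monosomes it was at 4.31 and 3.60 FPKM in chow and at 13.1 and 11.6 in DDC, and on light polysomes at 7.85 and 6.60 against 9.19 and 12.4. The heavy polysome values, 39.8 and 33.6 FPKM in chow and 36.2 and 41.2 in DDC, overlapped, and the others did not. Only the monosome change was called, 3.12-fold higher in DDC with a log2 change of 1.43 ± 0.21 (SE; adjusted p = 0.000378, limma). The others were 0.31 ± 0.21, 0.51 ± 0.21 and 0.08 ± 0.21 in cytoplasm, light and heavy polysomes (adjusted p = 0.327, 0.0859 and 0.835), and the 95% interval on heavy polysomes ran from -0.38 to 0.53.

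Pklr encodes the liver and red cell pyruvate kinase, whose liver message starts at the promoter shown above. Chow cytoplasm held 25.5 and 35.6 FPKM and DDC cytoplasm 55.5 and 42.4. The monosome values were 18.7 and 23.2 FPKM in chow and 7.63 and 26.3 in DDC, the light polysome values 16.7 and 21.8 against 9.26 and 15.2, and the heavy polysome values 19.2 and 23.9 against 8.67 and 25.5. DDC thus stood above chow in cytoplasm and below it on light polysomes, without overlap, whereas monosomes and heavy polysomes overlapped. In all 3 DDC fractions, the library of preparation B was the lower of the pair. No change was called: the log2 changes were 0.67 ± 0.53, -0.51 ± 0.53, -0.64 ± 0.53 and -0.49 ± 0.53 (SE; adjusted p = 0.407, 0.477, 0.388 and 0.554, limma). Their 95% intervals were wide, from -0.48 to 1.82 in cytoplasm and from -1.64 to 0.67 on heavy polysomes, so that a rise of more than 2-fold in cytoplasm and a fall of more than 2-fold on heavy polysomes lie within them. Without the DDC library of preparation B, the sign turned on monosomes (0.32) and on heavy polysomes (0.24), again without a call, and with equal FPKM totals the heavy polysome value was 0.001. The transcript Pklr-202, from the liver start, held 91.1% to 100% of the gene's FPKM, and Pklr-201, from the upstream start used in red cells, was listed at 0 in all 16 libraries.

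Pkm rose in every pool, from a low level in chow. It was at 2.17 and 1.68 FPKM in chow cytoplasm and at 10.6 and 22.3 in DDC cytoplasm, and on monosomes at 1.71 and 3.44 against 25.2 and 20.6. Light polysomes held 1.83 and 1.78 FPKM in chow and 26.7 and 30.1 in DDC, and heavy polysomes 4.99 and 4.73 against 61.2 and 61.1. The lowest DDC library, at 10.6 FPKM in cytoplasm, lay above the highest chow library of any pool. The means were 8.55-fold, 8.89-fold, 15.8-fold and 12.6-fold higher in cytoplasm, monosomes, light and heavy polysomes. The log2 changes were 2.50 ± 0.32, 2.78 ± 0.32, 3.39 ± 0.32 and 3.41 ± 0.32 (SE), with adjusted p of 0.000265, 8.64e-05, 2.83e-05 and 2.12e-05 (limma). The larger value on heavy polysomes than in cytoplasm was not called as a difference (0.91 ± 0.45, adjusted p = 0.461, limma).

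The called rise lay in Pkm-201, the transcript with the exon of the M2 enzyme. Pkm-201 was at 1.30 to 1.72 FPKM in chow cytoplasm, monosomes and light polysomes and at 4.61 and 4.73 FPKM on chow heavy polysomes. In DDC it was at 9.92 and 21.2 FPKM in cytoplasm, 21.3 and 19.2 on monosomes, 26.3 and 28.4 on light and 60.9 and 56.1 on heavy polysomes. It was called higher in all 4 pools, by log2 changes of 2.69, 2.97, 3.53 and 3.39 (SE 0.29 each; adjusted p = 0.000363, 0.000121, 4.67e-05 and 5.3e-05, limma over transcripts). Pkm-202, with the exon of the M1 enzyme, was at most 1.72 FPKM in any chow library and at most 4.99 FPKM in any DDC library, and was not called in any pool. Its log2 changes were 0.35, 1.07, 0.51 and 1.29 (SE 0.69 each), in the same order of pools. The 2 transcripts were not tested against each other. The share of Pkm-201 in Pkm was 50% to 100% in chow and 84.7% to 99.4% in DDC. The chow values rest on few reads: by the approximate value of 1 fragment in each library, 71 to 178 fragments stood behind Pkm-201 and 0 to 100 behind Pkm-202 in a chow library, against 1059 to 3505 behind Pkm-201 in a DDC library. The authors' software divided reads between the 2 transcripts, which differ by only this exon and their ends.

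The balance between the 2 pyruvate kinase genes followed from these values. Pkm made up 7.84% and 4.49% of the summed FPKM of Pklr and Pkm in chow cytoplasm, and 16.1% and 34.4% in DDC cytoplasm. On monosomes the share was 8.38% and 12.9% in chow and 76.7% and 43.9% in DDC, on light polysomes 9.85% and 7.54% against 74.2% and 66.5%, and on heavy polysomes 20.6% and 16.5% against 87.6% and 70.5%. Pklr was thus the more abundant of the pair in all 8 chow libraries, in both DDC cytoplasmic libraries and in 1 DDC monosome library, and Pkm in the other 5. On the scale log2((Pklr + 1)/(Pkm + 1)) the balance was 3.42 ± 0.50 in chow and 1.59 ± 0.98 in DDC cytoplasm (SD, n = 2 each), and 1.94 ± 0.26 against -1.96 ± 1.03 on heavy polysomes. The differences between diets were -1.83, -3.29, -4.03 and -3.89 in cytoplasm, monosomes, light and heavy polysomes. No pair of groups overlapped in any pool, and the exact permutation test (two-sided) gave p = 0.333 in each, the smallest p that 2 against 2 libraries allow.

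**Figure D3:**
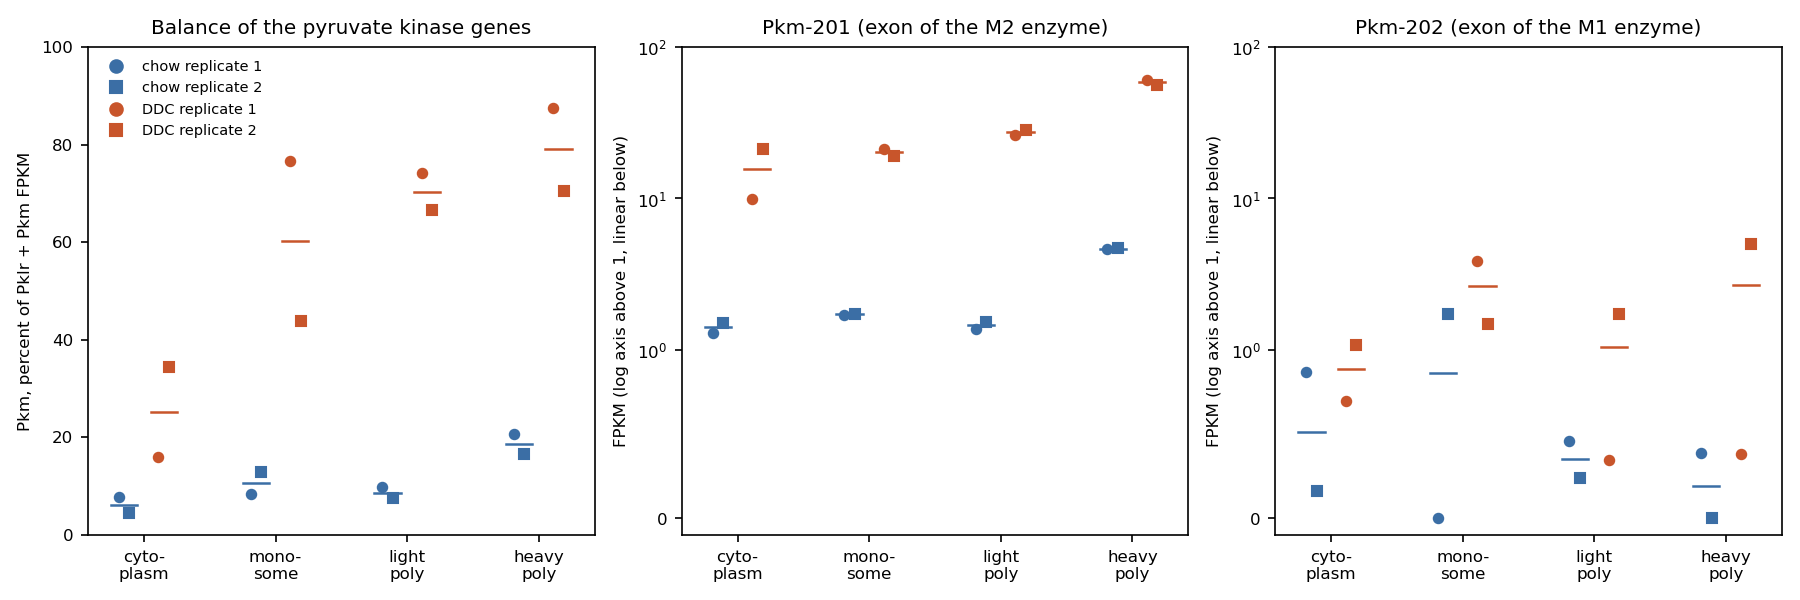
Left, percent of Pkm in the summed FPKM of Pklr and Pkm; middle and right, FPKM of Pkm-201 and Pkm-202 (log axis above 1, linear below), in the 4 RNA pools (x); circles and squares are replicates 1 and 2, bars their mean. The share of Pkm is at most 20.6% in chow and reaches 87.6% in DDC, and the Pkm-201 values of the 2 diets lie apart in each pool whereas those of Pkm-202 overlap in each.

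The genes whose log2(FPKM + 1) ran closest to Pkm over the 16 libraries, among 10551 protein-coding genes, were Ehbp1l1 and Parvg (Pearson r = 0.976 each) and Cd68 (r = 0.975), and those closest to Pklr were Pdia3 (r = 0.956), Fam98a (r = 0.922) and Sc5d (r = 0.886). The libraries share diets, preparations and fractions, so these r values only describe likeness. Cd68, a lysosomal protein that marks macrophages, was at 2.09 and 2.67 FPKM in chow cytoplasm against 38.1 and 56.0 in DDC, and at 6.33 and 7.10 against 481 and 221 FPKM on heavy polysomes. The macrophage, stellate cell and cholangiocyte markers given above rose in the same libraries as Pkm. Their part in the Pkm result was not tested.

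Pcx encodes pyruvate carboxylase, the mitochondrial enzyme that makes oxaloacetate from pyruvate for gluconeogenesis and for the citric acid cycle. It was at 62.9 and 51.9 FPKM in chow cytoplasm against 48.9 and 31.8 in DDC, and on monosomes at 47.2 and 43.9 against 148 and 76.5. Light polysomes held 65.9 and 57.7 FPKM in chow and 65.6 and 115 in DDC, and heavy polysomes 260.4 and 147 against 187 and 111. DDC lay above chow on monosomes and below it in cytoplasm without overlap, and the light and heavy polysome values overlapped. The monosome change alone was called, 2.47-fold higher with a log2 change of 1.21 ± 0.41 (SE; adjusted p = 0.035, limma). That call was lost without replicate 1 or 2 of the chow monosomes (1.26 and 1.16) or replicate 1 of the DDC monosomes (0.74). The other changes were -0.52 ± 0.41, 0.49 ± 0.41 and -0.44 ± 0.41 (adjusted p = 0.399, 0.39 and 0.477), and the last had the opposite sign (0.06) with equal FPKM totals. The monosome call was also lost when low genes were kept in (adjusted p = 0.0758, limma). Pcx-202 held 48.8% to 100% of the gene's FPKM. Pcx-201, which has another start, was called higher on heavy polysomes, where it was at 0 and 0.00213 FPKM in chow and at 33.1 and 5.23 FPKM in DDC. In cytoplasm the same transcript was at 32.2 and 12.6 FPKM in chow and at 4.84 and 8.36 in DDC, lower without overlap and not called (-1.52 ± 0.88, SE; adjusted p = 0.362, limma over transcripts).

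Pck1, the cytosolic phosphoenolpyruvate carboxykinase that turns oxaloacetate into phosphoenolpyruvate, fell in every pool. It was at 307 and 879 FPKM in chow cytoplasm and at 96.4 and 128 in DDC cytoplasm. Monosomes held 127 and 200 FPKM in chow and 72.2 and 48.1 in DDC, light polysomes 172 and 308 against 69.7 and 62.6, and heavy polysomes 274 and 473 against 93.0 and 108. The chow values were all above the DDC values of the same pool, and chow replicate 2 was the higher of its pair in each pool. The DDC means were 0.189, 0.368, 0.276 and 0.269 of the chow means. The log2 changes were -2.21 ± 0.47, -1.42 ± 0.47, -1.79 ± 0.47 and -1.84 ± 0.47 (SE), with adjusted p of 0.00615, 0.0334, 0.0137 and 0.0138 (limma). Each of the 4 calls was lost without replicate 2 of the chow group, with log2 changes of -1.46, -1.09, -1.37 and -1.44, and without 1 DDC library: replicate 1 in cytoplasm (-2.01) and on heavy polysomes (-1.73), and replicate 2 on monosomes (-1.13) and light polysomes (-1.71). The monosome call was also lost with equal FPKM totals (-1.12; adjusted p = 0.0861, limma) and when low genes were kept in (adjusted p = 0.0782), and the heavy polysome call with equal FPKM totals (-1.33; adjusted p = 0.0666) and with quantile normalization (-1.31; adjusted p = 0.0714). The main Pck1 transcript (2661 bases) was called lower in cytoplasm, on light and on heavy polysomes.

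Fbp1, fructose-1,6-bisphosphatase, which reverses the phosphofructokinase step, was lower in DDC in every pool and was called on monosomes and polysomes. In cytoplasm it was at 420.4 and 416 FPKM in chow and at 179 and 163 in DDC, and on monosomes at 642 and 569 against 96.1 and 122. Light polysomes held 878 and 699 FPKM in chow and 56.6 and 196 in DDC, and heavy polysomes 1674 and 1144 against 296 and 483. No groups overlapped. The DDC means were 0.41 of chow in cytoplasm and 0.18, 0.16 and 0.277 of chow on monosomes, light and heavy polysomes. The fractions were called, with log2 changes of -2.47 ± 0.45, -2.88 ± 0.45 and -1.87 ± 0.45 (SE; adjusted p = 0.00152, 0.000731 and 0.0105, limma), and the cytoplasm was not (-1.28 ± 0.45, adjusted p = 0.0628). The heavy polysome call was lost without replicate 1 of the chow group (-1.59) or of the DDC group (-1.51). The SE of a gene is shared by all groups, so spread in other pools enters the cytoplasm result. Without either DDC light polysome library, cytoplasm was called at the same change (-1.28).

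The mix of Fbp1 transcripts differed by fraction, more widely in chow than in DDC. A short form of 612 bases held 83.3% and 85.3% of the gene's FPKM in the chow monosome libraries and 68.5% and 70.2% on chow light polysomes. It held 8.63% and 3.15% on chow heavy polysomes and 0.157% and 0.865% in chow cytoplasm. In DDC the short form held 44.7% and 28.2% on monosomes and 2.29% and 0.419% in cytoplasm. Its DDC shares on light polysomes (19.5% and 25.1%) and heavy polysomes (24.6% and 0%) overlapped. The full-length form (1479 bases) was at 107 and 83.9 FPKM on chow monosomes against 53.2 and 87.2 in DDC, which overlap, and at 1529 and 1107 against 223 and 483 on heavy polysomes. It was called lower on heavy polysomes (-1.98 ± 0.51, SE; adjusted p = 0.0243, limma over transcripts) and in no other pool. The short form fell by 3.70 and 4.47 on the log2 scale on monosomes and light polysomes with an SE of 1.57, and was not called itself (adjusted p = 0.119 and 0.0808, limma). Weighted by length, the gene changed by -1.84 on monosomes, -2.33 on light and -1.93 on heavy polysomes and was called in each.

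G6pc encodes the catalytic subunit of glucose-6-phosphatase, the last step of glucose release. It was at 81.9 and 78.3 FPKM in chow cytoplasm and at 16.1 and 19.6 in DDC, and on monosomes at 32.8 and 54.0 against 7.06 and 20.3. Light polysomes held 29.7 and 46.3 FPKM in chow and 2.88 and 14.8 in DDC, and heavy polysomes 23.6 and 55.4 against 2.11 and 14.4. Every DDC library lay below both chow libraries of its pool, and as with Pklr, the DDC fractions of preparation B were the lower. The DDC means were 0.223, 0.315, 0.232 and 0.209 of chow. The log2 changes were -2.11 ± 0.78, -1.72 ± 0.78, -2.28 ± 0.78 and -2.43 ± 0.78 (SE; adjusted p = 0.0731, 0.103, 0.0439 and 0.0391, limma), so that light and heavy polysomes were called and cytoplasm and monosomes were not. These 2 calls lay near the threshold and held in 13 and 14 of 26 alternatives. On light polysomes the call was lost without either chow light polysome library (-2.60 and -1.97) or DDC replicate 1 (-1.27), and on heavy polysomes without chow replicate 2 (-1.83) or DDC replicate 1 (-1.27). The cytoplasm change, whose SE is shared with the other pools, was called with quantile normalization (-2.35; adjusted p = 0.0332, limma). It was also called without either DDC heavy polysome library (-2.11), so the calls do not set the pools apart. With the replicate block, G6pc was called in cytoplasm (adjusted p = 0.0033, limma) and on monosomes (0.00682) too, and Fbp1 in cytoplasm (0.0196), which brings the members called in cytoplasm to 5. Each preparation belongs to 1 diet, so the block takes the spread between preparations out of the error of a diet difference, and a smaller p can follow from this construction alone. These p-values compare the preparations used, not diets over preparations. The labels do not tie the DDC cytoplasmic libraries C2 and D2 to preparations B and C, so the block in cytoplasm rests on the replicate number alone.

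The distribution along the gradient was compared within each diet. In chow, 4 of the 8 genes were called higher on heavy polysomes than on monosomes (Gpi1, Pfkl, Fbp1, Pcx) and none lower, where 44.8% of all genes were called, 23.7% higher and 21.1% lower. In DDC, 4 were called higher (Gpi1, Pfkl, Pkm, Fbp1) and none lower, against 32.7% of all genes, 18.2% higher and 14.5% lower. Values were scaled between libraries, and summed FPKM differed between fractions. The sums were 1386166 and 1364644 on chow heavy polysomes against 767756 and 815252 on chow monosomes. In DDC they were 1092668 and 858593 against 614115 and 668537. The changes below are thus in FPKM as deposited, and are neither amounts of RNA nor shares of a library's total. Pfkl showed the largest difference of the 8 in chow: heavy polysomes held 39.8 and 33.6 FPKM and monosomes 4.31 and 3.60, a 9.28-fold difference (log2 2.93 ± 0.21, SE; adjusted p = 4.36e-06, limma). In DDC it was 3.13-fold (1.57 ± 0.21, adjusted p = 0.000256). Pcx was 4.47-fold higher on heavy polysomes in chow (2.08 ± 0.41, adjusted p = 0.00143) and 1.33-fold in DDC (0.43 ± 0.41, adjusted p = 0.448).

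Gpi1 was 2.70-fold higher on heavy polysomes than on monosomes in chow (log2 1.44 ± 0.25, SE; adjusted p = 0.000767, limma) and 2.08-fold in DDC (1.05 ± 0.25, adjusted p = 0.00823). With protein-coding transcripts only, the chow value was 0.59 and not called. With quantile normalization, which gives every library the same distribution of values, the Gpi1 values were 0.40 in chow and 0.32 in DDC, and neither was called (adjusted p = 0.152 and 0.274, limma). Fbp1 was 2.33-fold higher in chow (1.19 ± 0.45, adjusted p = 0.0497) and 3.58-fold in DDC (1.80 ± 0.45, adjusted p = 0.0102). The chow call for Fbp1 was lost in 17 of 26 alternatives, among them each of the 4 chow heavy polysome and monosome libraries left out (0.92 to 1.47), and the change was 2.12 when transcripts were weighted by length. In DDC it was lost without replicate 2 of the heavy polysomes (1.44) or replicate 1 of the monosomes (1.63). Pkm was 2.67-fold higher in DDC (1.39 ± 0.32, adjusted p = 0.00586) and 1.89-fold in chow (0.76 ± 0.32, adjusted p = 0.071, not called). Pck1 was 2.29-fold and 1.67-fold higher in chow and DDC (1.17 ± 0.47 and 0.75 ± 0.47, adjusted p = 0.0616 and 0.245), and was called in both with the replicate block (adjusted p = 0.00409 and 0.0481). Pklr and G6pc did not pass in either diet: Pklr by 0.04 ± 0.53 and 0.06 ± 0.53, with a 95% interval of -1.11 to 1.19 in chow, and G6pc by -0.21 ± 0.78 and -0.92 ± 0.78. Scaling all libraries to equal FPKM totals moved the median of all genes by -0.36 in chow and -0.37 in DDC. Under this scaling Fbp1 in chow (0.40) and Gpi1 (0.45) and Pkm (0.80) in DDC were no longer called, and the signs of Pklr in both diets and of Pcx in DDC turned. Quantile normalization also ended the calls of Fbp1 in chow (0.41) and DDC (1.05) and of Pkm in DDC (0.97), and turned the same 3 signs.

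**Figure D4:**
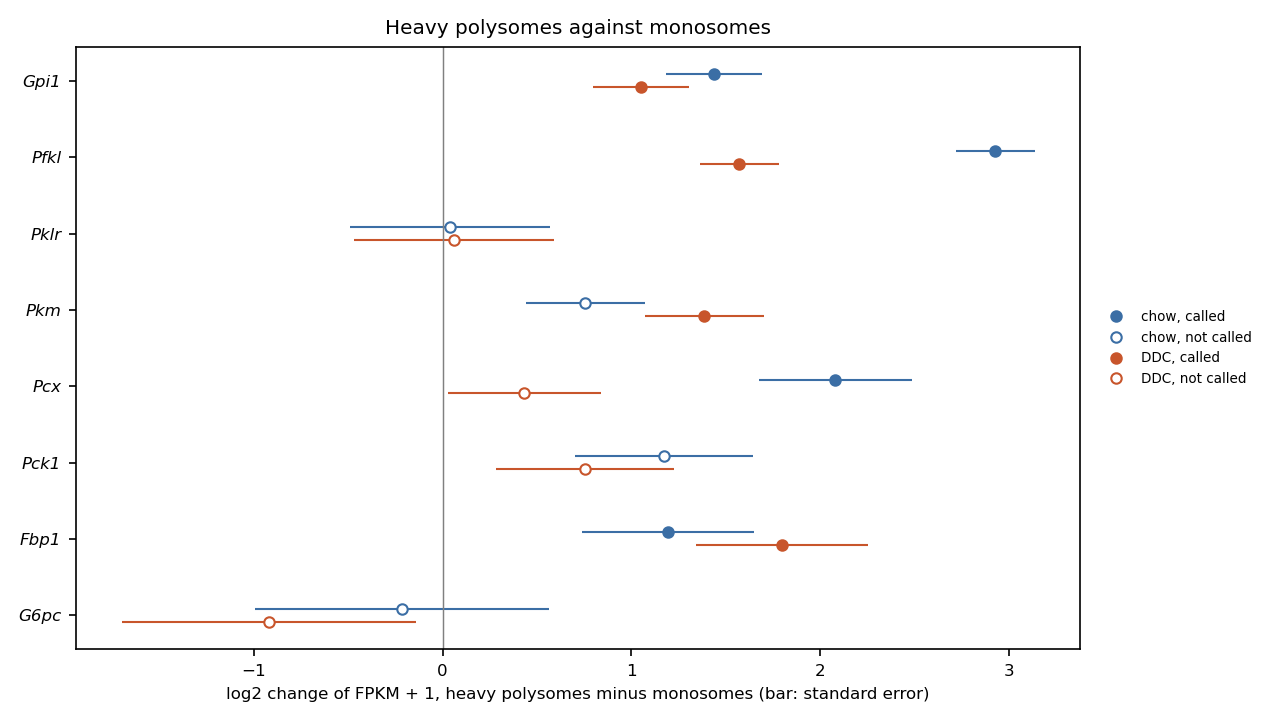
Log2 change of FPKM + 1 from monosomes to heavy polysomes (x) for each gene (y), chow in blue and DDC in orange, with standard errors as bars; filled points were called at an adjusted p under 0.05. The 2 diets lie farthest apart for Pcx and Pfkl, and Pklr lies at 0.04 and 0.06.

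The difference between diets in this step was tested as an interaction. Of the 8 genes, Pfkl alone was called (-1.35 ± 0.30, SE; adjusted p = 0.0431, limma), where 1.9% of all genes were called, 0.996% higher and 0.902% lower. As given above, the heavy polysome values of Pfkl overlapped between diets, and its monosome level was higher in DDC. The call was lost in 15 of 26 alternatives, with values from -1.54 to -1.15 and adjusted p from 0.0291 to 0.185. These included both replicates of the chow heavy, DDC heavy and DDC monosome groups and replicate 2 of the chow monosomes, each left out in turn (adjusted p 0.0568 to 0.118). Pcx differed by -1.65 ± 0.57 and was not called (adjusted p = 0.134). In the same test of heavy polysomes against cytoplasm none of the 8 was called, against 0.102% of all genes, 0.0596% higher and 0.0426% lower. Gpi1 differed by -1.12 ± 0.36 (adjusted p = 0.297, limma).

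The other genes of the routes are described from lists of named genes, in the order cytoplasm, monosomes, light and heavy polysomes. Over all genes tested, 12.7%, 21%, 16.6% and 13.9% were called higher and 9.68%, 15.9%, 13.5% and 10.9% lower, with median log2 changes of 0.01, 0.04, 0.01 and 0.02, and each list below is to be read against these. Of 18 further glycolysis enzymes tested (of 19; Eno2 did not pass the filter), 4, 8, 5 and 4 were called higher and 1, 1, 2 and 0 lower, with median log2 changes of 0.27, 0.46, 0.44 and 0.31. Aldoa, the aldolase of muscle and most tissues, rose in every pool, from 30.0 to 76.8 FPKM in cytoplasm and from 135 to 325 on heavy polysomes. Pfkp, the platelet-type phosphofructokinase, rose in every pool, from 0.142 to 1.93 FPKM in cytoplasm, and on heavy polysomes both chow libraries listed 0, beside a mean of 7.0 FPKM in DDC. Pfkm was not called in any pool. Gapdh rose from 423 to 1256 FPKM in cytoplasm, and was called on monosomes and light polysomes too. Pgk1 was lower in cytoplasm, monosomes and light polysomes, from 71.0 to 36.6 FPKM in cytoplasm. Of the hexokinases, Hk3, a form of leukocytes, rose from 0.492 to 9.92 FPKM and Hk1 from 0.034 to 1.65 FPKM on heavy polysomes, and Hk2 was called on monosomes alone. Ldha was called higher on monosomes alone and Ldhb in no pool.

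**Figure D5:**
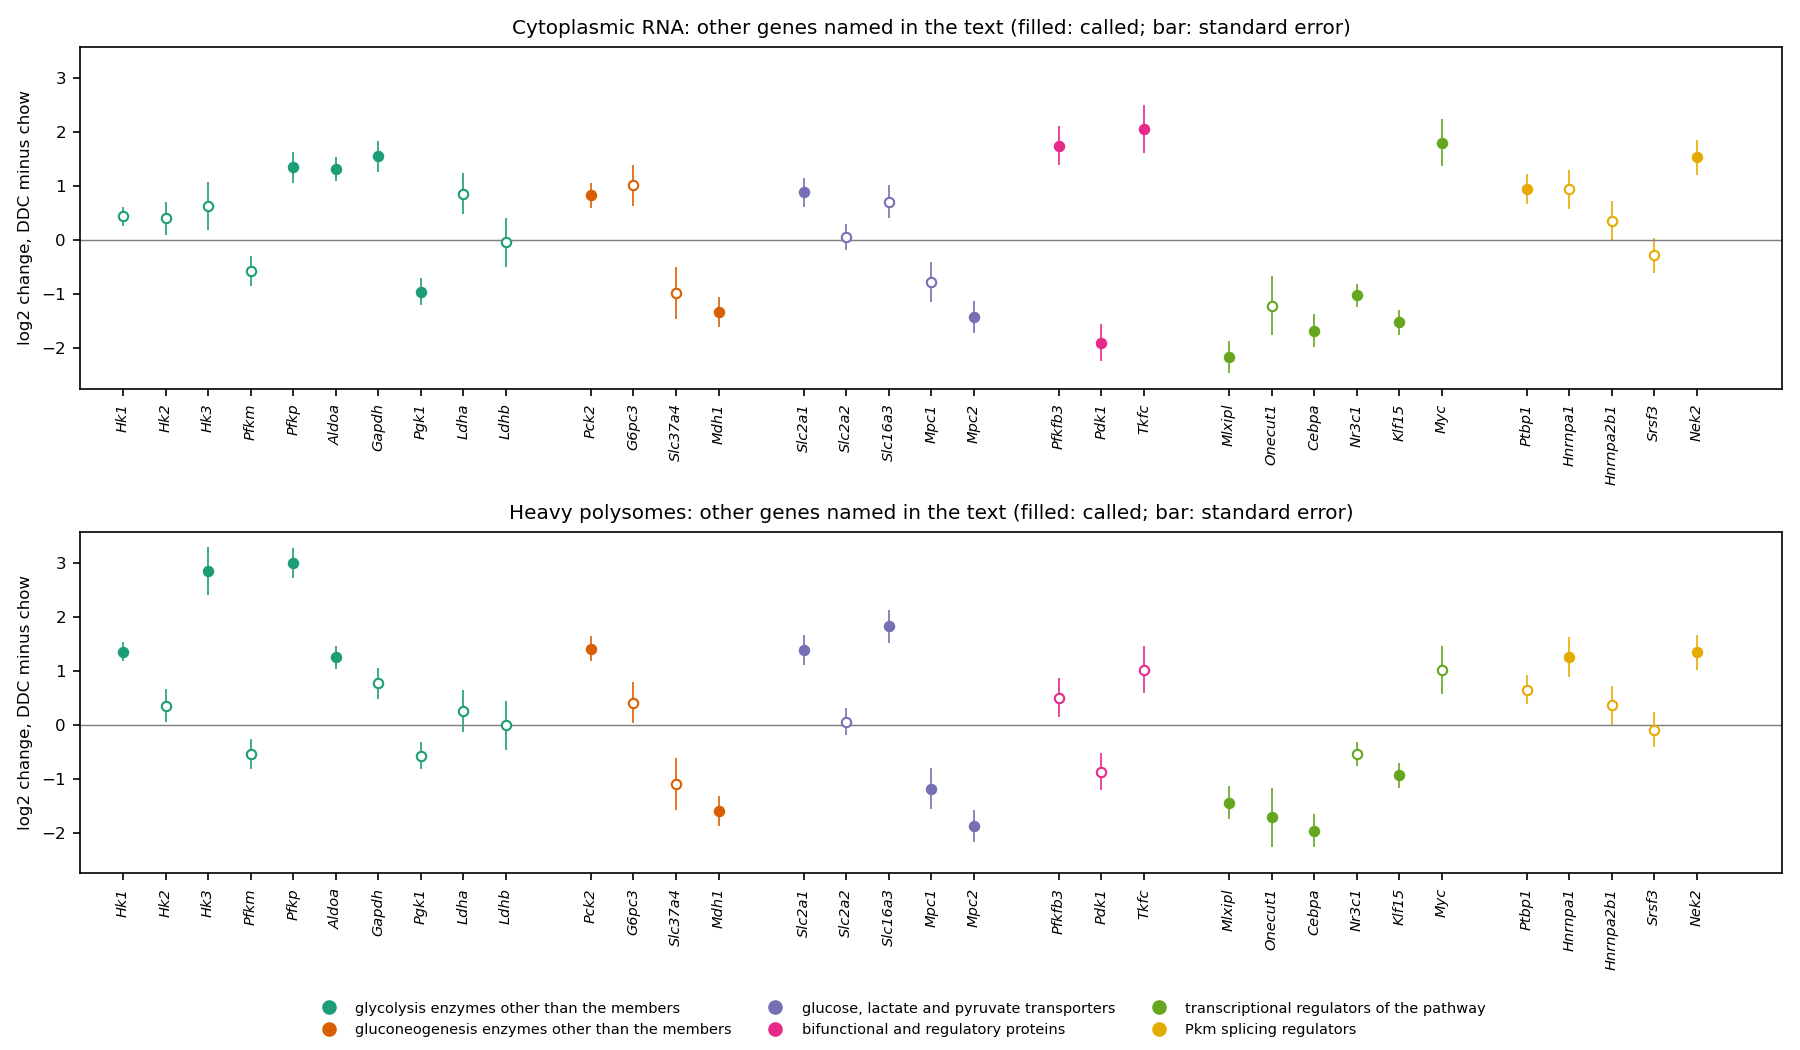
Log2 change of FPKM + 1 from chow to DDC (y) in cytoplasm (top) and on heavy polysomes (bottom) for the other tested pathway genes named in the text, grouped by list and colour (x); bars are standard errors and filled points were called. Aldoa, Pfkp and Slc2a1 are called above 0 and Mdh1, Mpc2, Mlxipl, Cebpa and Klf15 below 0 in both panels.

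Of 7 further gluconeogenesis enzymes tested (of 8; Fbp2 did not pass the filter), 1, 3, 0 and 1 were called higher and 1 was called lower in each pool, with medians of -0.16, 0.43, -0.21 and -0.03. The one that fell each time was Mdh1, the cytosolic malate dehydrogenase of the malate shuttle, from 231 to 91.9 FPKM in cytoplasm (log2 -1.32 ± 0.28, SE; adjusted p = 0.00647, limma) and from 470 to 155 on heavy polysomes (-1.59 ± 0.28, adjusted p = 0.00177). Pck2, the mitochondrial carboxykinase, rose from a low level of 0.202 to 1.15 FPKM in cytoplasm and was called on monosomes and heavy polysomes too. Slc37a4, the glucose-6-phosphate carrier that serves G6pc, was at 65.8 and 33.2 FPKM in chow and DDC cytoplasm and was not called in any pool. G6pc3, the widely expressed glucose-6-phosphatase, was called higher on monosomes alone, from 2.76 to 6.93 FPKM.

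Of 9 transporters tested (of 11), 1, 2, 1 and 2 were called higher and 1, 3, 3 and 3 lower, with medians of 0.06, 0.61, -0.09 and 0.06. Mpc2, a subunit of the mitochondrial pyruvate carrier that feeds Pcx, fell in every pool, from 179 to 67.5 FPKM in cytoplasm and from 605 to 167 on heavy polysomes. Its partner Mpc1 fell on monosomes, light and heavy polysomes, from 192 to 83.3 FPKM on the last. Slc2a1, the glucose transporter of most cells, rose from 3.71 to 7.68 FPKM in cytoplasm and from 4.28 to 12.9 on heavy polysomes, and Slc2a2, the liver transporter, was at 88.0 and 92.8 FPKM in chow and DDC cytoplasm and was not called in any pool. Slc16a3, a lactate exporter, was called higher in the 3 fractions.

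Of 11 regulatory proteins tested (of 12), 2, 2, 2 and 0 were called higher and 1, 1, 1 and 0 lower, with medians of 0.03, -0.23, 0.22 and -0.03. Pfkfb3, which makes the activator of phosphofructokinase, rose from 1.27 to 6.35 FPKM in cytoplasm. Tkfc, which phosphorylates glyceraldehyde from fructose, rose from 47.1 to 208 FPKM, and Pdk1, an inhibitory kinase of pyruvate dehydrogenase, fell from 10.4 to 2.06 FPKM in cytoplasm. On heavy polysomes no gene of this list was called.

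Of 22 transcriptional regulators tested (of 23), 1, 2, 2 and 0 were called higher and 5, 6, 5 and 5 lower, where 9.68%, 15.9%, 13.5% and 10.9% of all genes were called lower, with medians of -0.50, -0.21, -0.22 and -0.26. Mlxipl fell in every pool, from 25.9 to 5.08 FPKM in cytoplasm (-2.16 ± 0.30, SE; adjusted p = 0.000549, limma) and from 12.5 to 3.75 on heavy polysomes. It encodes ChREBP, whose motif lies in the Pklr promoter shown above. Pklr itself was not called in any pool, with the wide intervals given above. A link between Mlxipl and Pklr was not tested. Cebpa, a hepatocyte factor that acts on Pck1 and G6pc, fell from 174 to 55.2 FPKM in cytoplasm and from 377 to 101 on heavy polysomes, and Klf15, a fasting-responsive factor of gluconeogenesis, from 50.5 to 16.9 FPKM in cytoplasm. Onecut1 was called lower in the 3 fractions, and Nr3c1, the glucocorticoid receptor, in cytoplasm, monosomes and light polysomes. Myc rose from 1.43 to 7.51 FPKM in cytoplasm and was called on monosomes and light polysomes too.

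Of 6 regulators of Pkm splicing, 2, 2, 0 and 2 were called higher and 0, 1, 0 and 0 lower, with medians of 0.65, -0.14, 0.20 and 0.51. Ptbp1, which favours the M2 exon, rose from 22.7 to 45.1 FPKM in cytoplasm (0.95 ± 0.27, SE; adjusted p = 0.0259, limma) and from 23.6 to 44.6 on monosomes. Nek2 was called higher in cytoplasm, monosomes and heavy polysomes, and Hnrnpa1 on heavy polysomes, from 9.56 to 25.4 FPKM. Hnrnpa2b1 was at 225 and 289 FPKM in chow and DDC cytoplasm and was not called in any pool. Srsf3 was called lower on monosomes alone.

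Without the 4 chow libraries of preparation 1, in which Xist was detected, the members called on heavy polysomes fell from 5 to 3, and Fbp1 (-1.59) and G6pc (-3.03) were the ones lost. Pkm, Gpi1 and Pck1 were called in all 4 pools without them. For Pck1, the chow library kept was replicate 2, the higher of its pair in each pool. As given above, the Pck1 calls were lost when that replicate was left out instead. Without preparation 1, Pcx on monosomes (1.26), G6pc on light polysomes (-2.60) and the Pfkl interaction (-1.34) were no longer called. Of the members called between heavy polysomes and monosomes in chow, 1 of 4 was left, Pfkl.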

How the data were processed

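The values are FPKM per transcript that the authors deposited for 16 libraries (2 in each of 8 groups), made from stranded, polyA-selected libraries per the labels' protocols. Per the submitters' processing notes, Cuffnorm, STAR 2.4.2a, Trimmomatic, bcl2fastq 2.17.1.14 and Picard 1.119 were used, with the build GRCm38; options are not given in the sources used here. The lowest values put 1 fragment per kilobase at about 0.0148 to 0.0933 FPKM in a library. As values were scaled between libraries, depth is approximate. Summed FPKM ran from 375145 to 1386166, and 8313 to 9874 genes reached 1 FPKM.

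Transcripts were joined to GENCODE M21 (116728 of 117592 matched) and summed over 48158 genes. Summing FPKM gives short transcripts more weight than counting reads would. The 11790 genes that reached 1 FPKM in 2 or more libraries entered limma 3.58.1 in R 4.3.3: log2(FPKM + 1), 8 group means, variance trend, Benjamini-Hochberg over all genes, called at an adjusted p under 0.05, tested on simulated data. Where both libraries of a group listed 0 and any library of another group 100 FPKM or more, the value was treated as missing (49 genes, none of the 8). Transcripts (21481) were fitted alike, with values of 0 kept. Where Aldoa had more than 1 gene entry, the more abundant was used. Named genes were the 8 members, fixed isozymes, and up to 4 called genes per list, direction and comparison by size of change; of the 6 marker lists, red blood cell markers were called in no pool and endothelial ones in 0 to 2 of 6 tested. Members and lists were chosen with earlier results of these data known. Replicate numbers pair fractions within a diet by preparation name: replicate differences across genes correlated at 0.349 to 0.743 within chow, 0.293 to 0.373 between DDC fractions, -0.0624 to 0.171 with DDC cytoplasm, and -0.107 to 0.0735 between diets. Alternatives were the pseudocount, filter, scaling, zeros, transcripts summed, variance trend, replicate block and left-out libraries; weighting transcripts by length was chosen after seeing the data. Results for some items of the lists are not reported here.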

Additional observations from a re-analysis of the deposited data

Results flagged for a closer look

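The step from monosomes to heavy polysomes differed between diets for Pfkl, by -1.35 on the log2 scale (limma interaction, adjusted p = 0.0431). This was the one difference between 2 contrasts that passed a test among the 8 genes.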

How the results depend on the processing

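Of 28 calls for the 8 genes, 13 held in all 26 alternatives: Gpi1 and Pkm between diets in each pool, Pfkl and Fbp1 on monosomes, Fbp1 on light polysomes, and Pfkl between heavy polysomes and monosomes in both diets. No alternative used the full-length message of a gene alone. That of Fbp1 was not called on monosomes (-0.47) or light polysomes (-1.54; adjusted p = 0.554 and 0.065, limma over transcripts). That of Gpi1 was called in cytoplasm and on light polysomes but not on monosomes or heavy polysomes. The replicate block changed 5 of 52 results for single genes, named in the report and each gaining a call. None of the other single-gene results changed its call. The block raised the members called in cytoplasm from 3 to 5 and the genes called in the interaction over monosomes from 223 to 623. Genes called between diets rose to 3323, 5053, 4321 and 3563 (2630, 4346, 3541 and 2911 without it) and member transcripts called to 7, 8, 8 and 6 (5, 6, 6 and 5), in the order cytoplasm, monosomes, light and heavy polysomes. The numbers pair the fractions within a diet by preparation name, not the DDC cytoplasm.

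Equal FPKM totals moved the median of all genes by 0.178 to 0.278 between diets. They gave 3 members called on heavy polysomes, 2 from monosomes to heavy polysomes in DDC, 0 in the interaction over monosomes and 49 genes in that over cytoplasm (12 in the report's test). The signs of Pklr (0.001013) and Pcx (0.06139) on heavy polysomes turned, as did the step from monosomes to heavy polysomes of Pklr in chow (-0.7118) and DDC (-0.4835) and of Pcx in DDC (-0.1613). Quantile normalization gave 3, 2 (chow) and 1 (DDC) members, 7 genes in the interaction over cytoplasm, and -0.2808, -0.1315 and -0.2138 for those 3 steps. The interaction over cytoplasm had 5 genes with log2(FPKM + 0.1), 50 without a filter and 25 with 0 kept, and that over monosomes 404 with protein-coding transcripts and 374 weighted by length. Protein-coding transcripts turned Gpi1 over cytoplasm to 0.02719. Without a filter, 2 member transcripts (5 with it) were called on heavy polysomes. The light polysome balance was -4.586 with log2(FPKM + 0.1).

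Without the 4 chow libraries of preparation 1, 1001, 1829 and 1881 genes were called in cytoplasm, light and heavy polysomes (2630, 3541 and 2911 with them), 3029 for heavy polysomes against monosomes in chow (5270), and 84 and 6 in the interactions. Members called were 3 on heavy polysomes, 1 in the chow step and 0 in the interaction, 3 member transcripts were called on heavy polysomes, and G6pc in the chow step turned to 0.03469. The cause was not tested, but these fits hold fewer libraries.

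Leaving out 1 library at a time gave 1163 to 2777 genes called in cytoplasm (lowest without chow cytoplasm replicate 2, and more than 1.5 times fewer without any 1 of the 4 cytoplasmic libraries), 2016 to 3744 on light polysomes (lowest without chow light polysome replicate 2, and more than 1.5 times fewer without replicate 1 too), 10 to 400 in the interaction over monosomes (without chow monosome replicate 2 and 1) and 2 to 34 in that over cytoplasm (34 without DDC heavy polysome replicate 2). Members called were 3 to 5 on light polysomes, 2 to 5 on heavy polysomes and 0 to 1 in the interaction, and member transcripts called 3 to 7 in cytoplasm, 2 to 9 on light and 2 to 6 on heavy polysomes. None of the results whose sign turned was called: between diets, Pklr on monosomes (-1.34 to 0.3219) and heavy polysomes (-1.214 to 0.2406) and Pfkl on heavy polysomes (-0.0415 to 0.1963), and from monosomes to heavy polysomes, Pklr (-0.1116 to 0.1876) and G6pc (-0.812 to 0.3856) in chow and Pklr (-0.7708 to 0.8913), G6pc (-2.074 to 0.2321) and Pcx (-0.04028 to 0.9041) in DDC. A group left with 1 library is assumed to vary like the others.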
